A study of Mus musculus with 34 samples.

Results

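The mucus coat of the gut was examined through the promoters of 9 genes, Muc1, Muc2, Muc4, Muc13, Tff3, Fcgbp, Zg16, Clca1 and Agr2, chosen by name as mucins and goblet cell products. They were 9 of 21938 protein-coding genes whose promoter signal was measured. The value of a gene was the mean H3K4me3 signal within 1000 bp on each side of its 5′ end in GENCODE M21, on the mm10 build. H3K4me3, trimethylation of histone H3 at lysine 4, was measured by CUT&RUN, in which an antibody guides a nuclease to the mark and the released DNA is sequenced.

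The 4 libraries came from C57BL/6J mice, with 2 libraries in each group. The wild-type group carried no mutant allele, and the Apc Min/+ group carried 1 mutant copy of Apc, a brake on Wnt signalling, in every cell of the animal. Villus cells were scraped from small intestine that looked normal. The labels give the age of both groups as 5 weeks, whereas the study's methods give 6 weeks, and no treatment is named for either. The methods name 2 mice for each group, which is 1 for each library, though the labels do not tie a library to an animal.

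Goblet cells are secretory cells that lie scattered among the absorptive enterocytes of the villus and release mucus. Mucins are long glycoproteins of 2 kinds, secreted mucins that form the gel, such as Muc2, and transmembrane mucins that stand on the apical surface, such as Muc1, Muc4 and Muc13. Tff3, Fcgbp, Zg16 and Clca1 are released with the gel, and Agr2 is a disulfide isomerase of the endoplasmic reticulum that is needed to make Muc2. H3K4me3 lies at the start of genes that are in use. In a preparation of mixed cells, fewer goblet cells and less of the mark per goblet cell cannot be told apart.

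By their headers the tracks hold 1430000 and 4790000 tags in wild type and 3700000 and 5470000 in Apc Min/+. Wherever the 4 libraries are listed, wild type comes before Apc Min/+, and replicate 1 before replicate 2. Apc Min/+ replicate 1 stood apart. Its median signal over the 9930 promoters whose mean signal reached 2 was 13.2, against 3.06 to 4.53 in the other libraries, although the genome-wide mean was 0.367 in every track. The differences of the 9 genes and of the lists that follow are therefore also given without it. The cell type was read from marker promoters. Of 12 enterocyte markers, 10 had a mean signal of at least 2, among them Vil1 at 14.2, whereas this held for 0 of 6 Paneth cell, 0 of 5 tuft cell, 0 of 6 enteroendocrine, 0 of 6 immune and 0 of 6 mesenchymal markers. The summed signal of the immune markers ranged from 3.89 to 4.79 in wild type and from 4.03 to 4.71 in Apc Min/+, and that of the mesenchymal markers from 3.36 to 3.49 and from 5.60 to 5.94. The mesenchymal sums did not overlap between the groups, with Col1a1 and Pdgfra at 0 in wild-type replicate 1. Of the immune markers, Ptprc was at 0 in wild-type replicate 1 and Lyz2 in Apc Min/+ replicate 1. Their part in the values below was not tested.

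The promoters of the mucin genes differed in sequence. Sequences of RefSeq on GRCm38.p6, which has the coordinates of mm10, were matched for 6 of the 9 genes and run from 250 bases before a start site to 50 bases after it. Those of Muc13, the only gene of the 9 with a strong signal, are shown with those of Muc2 and Muc1, whose signal was low. Capitals mark matches on either strand to 6 motifs. These were the TATA box with the letters TATAAA, the FOXA motif with TGTTTAC, the CDX motif with TTTATNG, the E-box with CAGCTG, the Sp1 motif with GGGCGG and the core of the HNF4 motif with CAAAGT.
Muc13, chr16:33793787-33794086, plus strand: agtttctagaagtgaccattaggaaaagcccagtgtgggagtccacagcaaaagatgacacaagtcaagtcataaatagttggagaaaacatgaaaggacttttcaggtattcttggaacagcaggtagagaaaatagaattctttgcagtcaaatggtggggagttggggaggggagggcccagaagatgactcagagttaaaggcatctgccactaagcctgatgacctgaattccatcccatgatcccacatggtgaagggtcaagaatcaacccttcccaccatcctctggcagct
Muc13, later start, chr16:33794239-33794538, plus strand: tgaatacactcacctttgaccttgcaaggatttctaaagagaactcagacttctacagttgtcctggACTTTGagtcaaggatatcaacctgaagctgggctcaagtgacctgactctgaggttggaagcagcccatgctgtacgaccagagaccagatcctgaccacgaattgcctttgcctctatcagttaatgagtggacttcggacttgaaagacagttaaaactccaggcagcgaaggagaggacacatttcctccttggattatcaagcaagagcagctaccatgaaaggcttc
Muc2, chr7:141690090-141690389, plus strand: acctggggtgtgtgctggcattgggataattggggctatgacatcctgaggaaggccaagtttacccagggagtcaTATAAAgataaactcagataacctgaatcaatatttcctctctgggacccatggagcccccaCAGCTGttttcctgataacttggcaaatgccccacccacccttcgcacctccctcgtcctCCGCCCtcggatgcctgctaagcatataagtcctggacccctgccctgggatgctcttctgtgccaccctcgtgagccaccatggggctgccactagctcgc
Muc1, chr3:89228806-89229105, plus strand: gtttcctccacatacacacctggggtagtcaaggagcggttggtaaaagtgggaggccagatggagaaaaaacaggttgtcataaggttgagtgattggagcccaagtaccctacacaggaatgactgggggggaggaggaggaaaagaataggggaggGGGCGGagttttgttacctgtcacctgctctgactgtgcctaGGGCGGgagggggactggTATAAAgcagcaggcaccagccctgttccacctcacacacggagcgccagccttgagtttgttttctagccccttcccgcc

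The upstream Muc13 sequence held 0 CpG dinucleotides and none of the 6 motifs. The sequence at its later start, 452 bp downstream, held 4 CpG and 1 HNF4 core. The Muc2 sequence held 6 CpG with a TATA box, an E-box and an Sp1 motif, and the Muc1 sequence held 6 CpG with a TATA box 31 bases before the start and 2 Sp1 motifs. Over all 32851 RefSeq promoters the median was 7 CpG. Of these promoters, 13.6% held the TATA box, 3.65% the FOXA motif, 10.9% the CDX motif, 16.3% the E-box, 35.7% the Sp1 motif and 14.4% the HNF4 core. The Muc4 promoter held 1 CpG, with a TATA box 36 bases before the start that overlaps a CDX match. The Agr2 promoter held 7 CpG and 1 CDX match, and the Fcgbp promoter held 7 CpG and 1 E-box. A match describes the letters only.

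Muc13, a transmembrane mucin of the enterocyte surface, had the highest promoter signal of the 9 genes and was the only one with a mean of at least 2. Its gene lies at chr16:33794037-33819934 on the plus strand. The window held a signal of 6.43 and 2.28 in wild type and of 15.5 and 4.78 in Apc Min/+, on 18, 22, 115 and 52 fragments. In every library this was more than 6 times the genome-wide mean, from 6.21 to 42.3 times, and Muc13 ranked above 67.2% to 88.1% of all promoters. It lay above Muc2, the next in order, in 4 of 4 libraries, by 1.35 on the log2(signal + 1) scale. The two-sided exact sign-flip permutation p was 0.125, the smallest that 4 libraries allow. The pair was taken from the order of these same values, so this p describes the order and is no independent test.

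**Figure D1:**
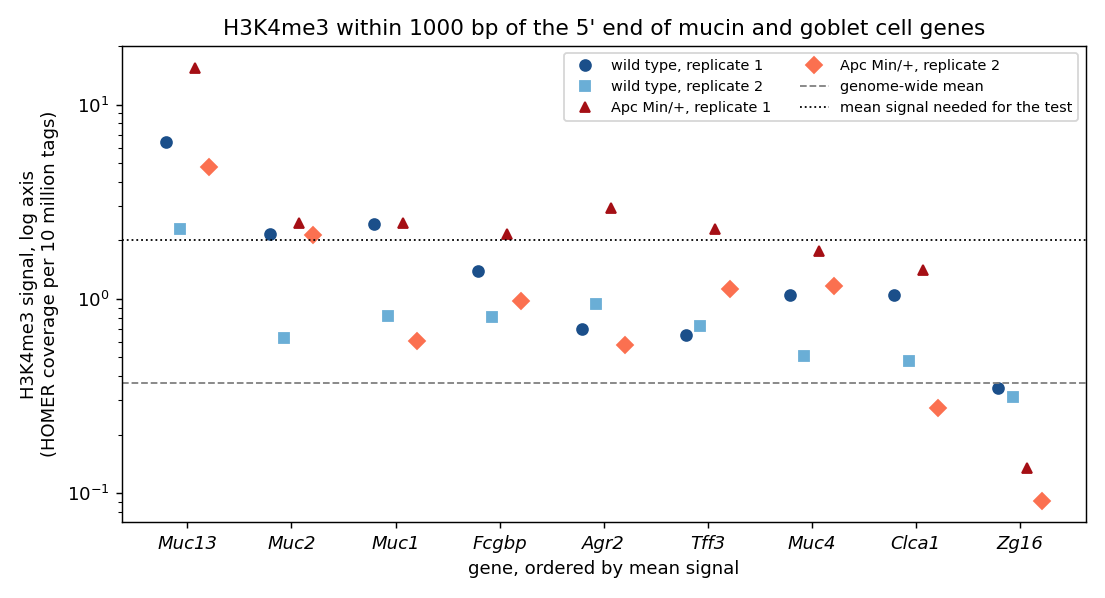
H3K4me3 signal (HOMER coverage per 10000000 tags, log axis) within 1000 bp of the 5′ end of each of the 9 genes, 1 point per library, with the genome-wide mean (dashed) and the mean signal needed for the test (dotted). Muc13 lies above the dotted line in every library, the points of Zg16 lie at or below the dashed line, and the other genes lie mostly between the lines.

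The mark at Muc13 was broad and lay downstream of the 5′ end. On the mean of the 4 tracks, the region above 5 times the genome-wide mean ran for 5000 bp, from 100 bp before the 5′ end to 4900 bp after it. It covered the first 2 exons of the longer transcript and the introns after them and ended where exon 3 begins. Called on single libraries, it was 5200 and 4800 bp long in wild type and 10400 and 4900 bp long in Apc Min/+. The smallest step of the track was 2.24 and 0.67 in wild type and 0.79 and 0.59 in Apc Min/+. Fewer fragments therefore reach the threshold in wild-type replicate 1, and the single-library lengths were called at unlike stringency. Between 73.1% and 82.9% of the signal of this region lay more than 1000 bp downstream, outside the window by which promoters were measured. The 1000 bp downstream of the 5′ end had a signal of 11.7, 4.36, 27.6 and 8.61 in the 4 libraries, whereas the 1000 bp upstream had 1.14, 0.209, 3.36 and 0.946. The downstream side was higher in 4 of 4 libraries.

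Over all 21938 genes, the stretch from 1000 to 5000 bp downstream of the 5′ end is seldom marked so strongly. There Muc13 had 8.16 and 4.86 in wild type and 34.8 and 7.82 in Apc Min/+, above 99.8% to 99.9% of genes in each library. This stretch was chosen after the profile of Muc13 had been seen, so its rank is a description. Muc4, the next of the 9 genes in this stretch by its mean, had 1.40 and 0.627 in wild type and 3.40 and 2.32 in Apc Min/+.

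**Figure D2:**
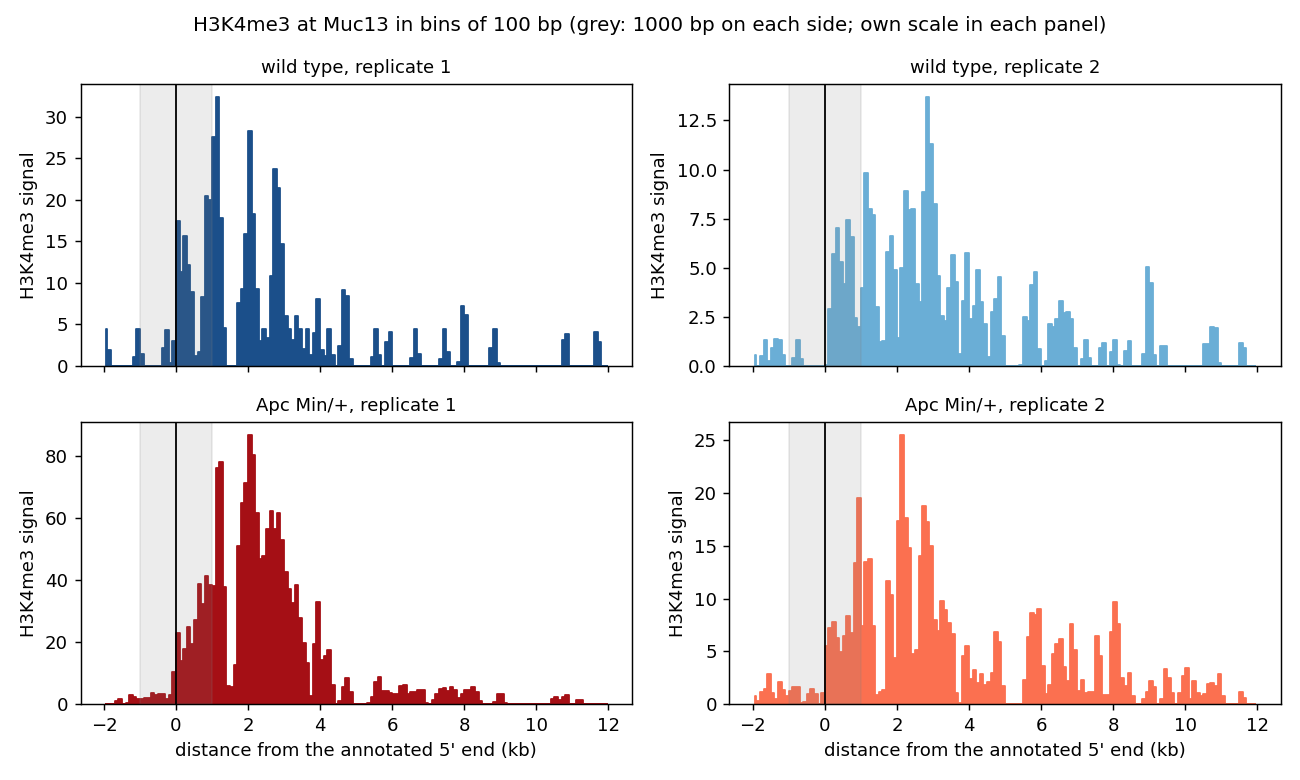
H3K4me3 signal (HOMER coverage per 10000000 tags, in bins of 100 bp) against the distance from the annotated 5′ end of Muc13 in kb, in the direction of transcription, 1 panel per library with its own scale. In all 4 libraries the signal rises at the 5′ end, has its highest bin between 1100 and 2900 bp downstream and falls near 4900 bp, so that most of it lies outside the grey window of 1000 bp on each side.

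The highest bin of 100 bp lay 1100 and 2800 bp downstream in the wild-type libraries and 2000 and 2100 bp downstream in the Apc Min/+ libraries. Its signal was 32.3, 13.7, 86.7 and 25.5 in that order. In each library the bins from 1400 to 1600 bp downstream were low, at 0, 2.11, 5.62 and 1.00, between bins on either side that were several times higher. An antisense gene, Gm15657, has annotated starts 2061 and 2837 bp downstream on the other strand, within the region. H3K4me3 carries no strand, so the shares of the 2 genes in this signal cannot be told apart. The 300 bp with the highest mean of the 4 libraries lay 2000 to 2299 bp downstream, across 1 of these starts, with 18.6, 5.09, 76.2 and 20.1. Their sequence is shown with each CpG in capitals.
Muc13 intron, chr16:33796037-33796336, plus strand: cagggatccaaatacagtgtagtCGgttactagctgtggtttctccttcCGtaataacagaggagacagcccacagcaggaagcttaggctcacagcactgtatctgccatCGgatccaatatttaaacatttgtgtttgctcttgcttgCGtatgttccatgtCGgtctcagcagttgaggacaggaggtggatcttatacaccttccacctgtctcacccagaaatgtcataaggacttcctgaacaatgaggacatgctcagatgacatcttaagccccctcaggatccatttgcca

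These 300 bp held 5 CpG, more than 38.0% of the RefSeq promoters. The whole region of 5000 bp had a GC content of 44.3% and 49 CpG, or 2.94 per 300 bp. The RefSeq promoters had a mean of 12.4 and a median of 7. They lie at start sites, whereas the region is mostly intron, so these are unlike stretches, and other introns were not compared.

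The comparison of Apc Min/+ with wild type asks whether the mark on mucus genes differs in mucosa that carries the mutant allele and looks normal. Muc13 was the only gene of the 9 that could be tested with limma beside the 9930 promoters above the filter. The wild-type mean was 4.35 ± 2.93 (SD, n = 2), the Apc Min/+ mean was 10.1 ± 7.59 (SD, n = 2), and the libraries of the groups overlapped. The log2(signal + 1) difference was 0.98 ± 1.08 (SE), with a limma adjusted p of 0.683. No promoter passed an adjusted p of 0.05 (percent called 0, of 9930), and the unadjusted p was under 0.05 at 132 of them.

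The median promoter of the 9930 was itself 0.85 higher in Apc Min/+. Relative to it, with each library centred, Muc13 differed by 0.13. Without Apc Min/+ replicate 1 its uncentred difference was 0.23. Without Apc Min/+ replicate 2 it was 1.74, with a limma adjusted p of 0.0153, in a fit in which 6479 promoters passed. As a multiple of the median of the 9930 promoters in the same library, the window of Muc13 stood at 1.42 and 0.745 in wild type and 1.18 and 1.14 in Apc Min/+. The whole region of 5000 bp stood at 1.97 and 1.54 in wild type and 2.55 and 1.91 in Apc Min/+. On either measure the 2 groups overlapped. The region's own signal was 8.93 and 4.73 in wild type, from 64 and 113 fragments, and 33.6 and 7.97 in Apc Min/+, from 622 and 218 fragments. The two-sided exact permutation p was 0.667, where 2 libraries against 2 cannot give less than 0.333.

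Muc2, the gel-forming mucin of goblet cells and the principal protein of intestinal mucus, came next in order but at a low level. It lies at chr7:141690340-141754693 on the plus strand. Its window had 2.15 and 0.627 in wild type and 2.47 and 2.14 in Apc Min/+. These rest on 6, 6, 18 and 23 fragments, where a window at the genome-wide mean would hold 1.05, 3.52, 2.72 and 4.02. The exact 95% Poisson interval was 2.20 to 13.1 fragments in both wild-type libraries, and 10.7 to 28.4 and 14.6 to 34.5 in the Apc Min/+ libraries. Muc2 was thus above the genome-wide mean beyond counting error in 3 libraries, and not detectably so in wild-type replicate 2. Its promoter was higher than its gene body in 4 of 4 libraries, with a mean of 1.85 against 0.286. This was the largest ratio of promoter to gene body among the low genes. The flank from 10000 to 2000 bp upstream of Muc2 had a mean of 0.617. Beside that flank Muc2 did not stand out, as Tff3, Fcgbp and Agr2 were likewise above theirs in 4 of 4 libraries. Wild-type replicate 1, at 2.15, matched the Apc Min/+ libraries, while wild-type replicate 2 lay far below them, so the groups overlapped.

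The transmembrane mucins Muc1 and Muc4 were also low. Muc1, at chr3:89229057-89233381 on the plus strand, had 2.44 and 0.815 in wild type and 2.46 and 0.608 in Apc Min/+, so that each group held 1 library above 2 and 1 below 1. Its largest part in Apc Min/+ replicate 1 lay upstream, with 4.34 in the 1000 bp before the 5′ end against 0.583 after it, and the start of the neighbouring gene Mtx1 lies 1969 bp away. Muc4, at chr16:32735886-32782391 on the plus strand, had 1.05 and 0.511 in wild type and 1.75 and 1.17 in Apc Min/+. Both Apc Min/+ values of Muc4 lay above both wild-type values, on 13 and 13 fragments against 3 and 5. At a second annotated start of Muc4, 311 bp downstream, the values were 0.998 and 0.627 in wild type and 2.62 and 1.53 in Apc Min/+.

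The proteins released with mucus had low promoters too. Tff3, a trefoil peptide that helps to repair the epithelium, lies at chr17:31125306-31129646 on the minus strand and had 0.651 and 0.728 in wild type and 2.30 and 1.12 in Apc Min/+. Its groups did not overlap, on 2 and 7 fragments against 17 and 12. In the 1000 bp downstream of its 5′ end the signal was 0 and 1.03 in wild type and 4.28 and 1.39 in Apc Min/+. Fcgbp, which encodes a large protein that binds to the Muc2 gel, lies at chr7:28071236-28120862 on the plus strand and had 1.39 and 0.805 in wild type and 2.16 and 0.978 in Apc Min/+, and its groups overlapped. Clca1, a secreted protease that processes Muc2, lies at chr3:145003817-145032776 on the minus strand and had 1.05 and 0.476 in wild type and 1.40 and 0.274 in Apc Min/+, with its highest and its lowest value in the same group.

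Zg16, a lectin that binds bacteria in mucus, lay at the bottom of the order. Around its annotated 5′ end at 127087328 of chromosome 7 (gene chr7:127050156-127087328, minus strand), the signal was 0.349 and 0.313 in wild type and 0.135 and 0.0914 in Apc Min/+, from 1, 3, 1 and 1 fragments. No library held more than 3 fragments, so no fold is given, although the groups did not overlap. This 5′ end belongs to a long annotated transcript. At another annotated start, 34653 bp downstream within the same gene, the signal was 1.07 and 0.940 in wild type and 1.27 and 0.950 in Apc Min/+. There too no strong signal was seen, and the groups differed by 0.07 on the log2(signal + 1) scale.

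Agr2, at chr12:35992907-36004087 on the plus strand, had 0.697 and 0.939 in wild type and 2.95 and 0.576 in Apc Min/+. Its difference rested on Apc Min/+ replicate 1, since the other Apc Min/+ library had the lowest value of the 4. The fitted difference was 0.46 ± 0.58 (SE) with all libraries and -0.20 without Apc Min/+ replicate 1.

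**Figure D3:**
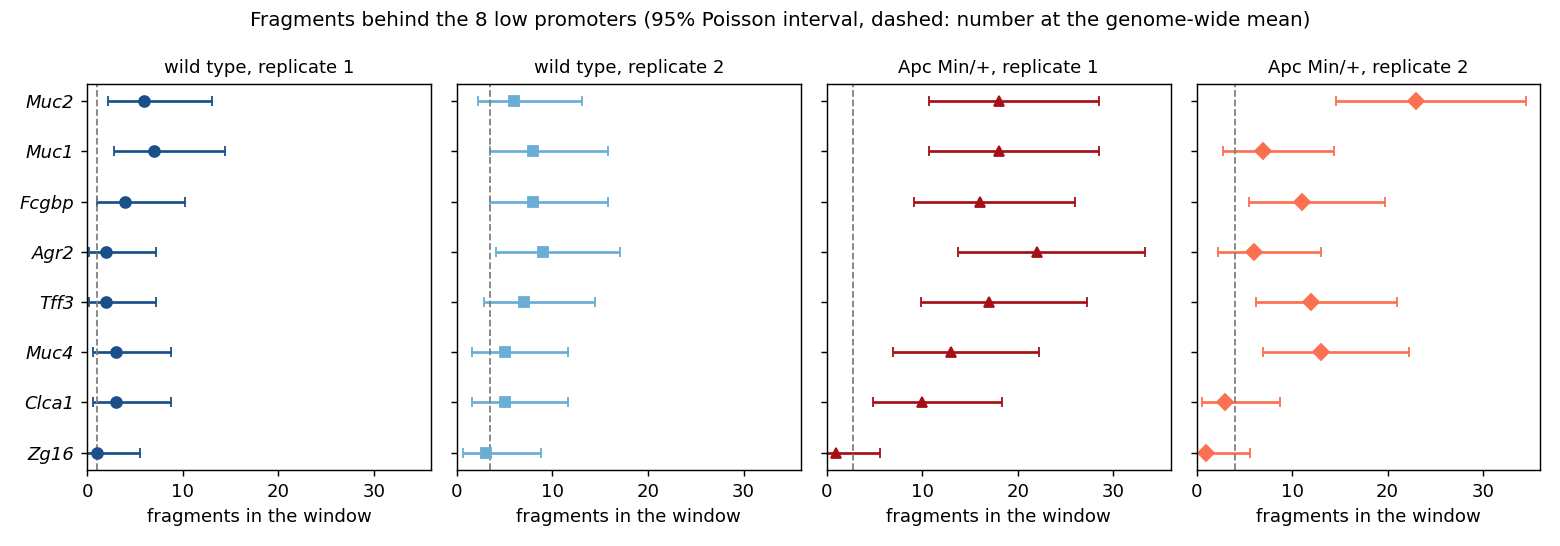
Number of fragments in the window of 1000 bp on each side for the 8 low promoters, 1 panel per library, with exact 95% Poisson intervals and the number a window at the genome-wide mean would hold (dashed). In Apc Min/+ replicate 1 the intervals of 7 of 8 promoters lie above the dashed line, whereas in wild-type replicate 2 this holds only for Agr2. The share over all promoters was not counted.

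Few fragments lay at these 8 promoters. Together they held 28 and 51 fragments in the wild-type pair and 115 and 76 in the Apc Min/+ pair, where 8 windows at the genome-wide mean would hold 8.40, 28.1, 21.7 and 32.1. The Poisson interval lay above the genome-wide mean for 3 and 1 of the 8 promoters in the wild-type libraries and for 7 and 4 in the Apc Min/+ libraries. Zg16 was not among them in any library. The share over all promoters was not counted, so these counts set neither the 8 promoters nor the groups apart. The median of all 21938 promoters was itself above the genome-wide mean of 0.367, at 1.39 and 0.974 in wild type and 1.62 and 1.39 in Apc Min/+. The summed fragments rose with depth over the other libraries, but Apc Min/+ replicate 1, with the most, is shallower than Apc Min/+ replicate 2. The part of depth in these counts was not tested. Intervals cover counting error only.

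Below Muc13, the order of the means was Muc2 (1.85), Muc1 (1.58), Fcgbp (1.34), Agr2 (1.29), Tff3 (1.20), Muc4 (1.12), Clca1 (0.799) and Zg16 (0.222). The pairs of neighbours were taken from this same order, so their p values describe it and are no independent tests. Neighbours from Muc2 to Clca1 changed places between libraries, with the higher gene ahead in 2 or 3 of 4 libraries and exact sign-flip permutation p from 0.25 to 1. Clca1 lay above Zg16 in 4 of 4 libraries (exact sign-flip permutation p = 0.125). This place of Zg16 holds for the 5′ end of its long transcript only. At its start 34653 bp downstream the mean was 1.06, above that of Clca1.

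Since 8 of the 9 genes did not reach the mean signal needed for the test, all 9 were also fitted together with all 21938 promoters. In this fit 0 of 9 passed an adjusted p of 0.05, as did 0 of all promoters (percent called 0), of which 579 were below 0.05 before adjustment, and the limma adjusted p of the 9 genes ranged from 0.760 to 1. The same fit made no calls among promoters changed in simulated data, so these counts of 0 carry little information. Of the 9 genes, 7 had a higher mean log2(signal + 1) in Apc Min/+, all but Muc1 and Zg16, beside 70.6% of all promoters, but only 1 of 9, Muc13, stayed above 0 when each library was centred on the median of the 9930 promoters. The median difference of the 9 genes was 0.46, beside 0.35 for all promoters, and -0.39 beside -0.50 when centred. Without Apc Min/+ replicate 1, 4 of 9 genes were higher, beside 60.3% of all promoters, and the median was -0.07, beside 0.08. The differences were then 0.47 at Muc2, 0.30 at Muc4 and 0.33 at Tff3, and those of Muc1, Fcgbp, Clca1 and Agr2 were -0.64, -0.07, -0.45 and -0.20.

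The groups did not overlap, with Apc Min/+ higher, at 2 of 9 genes, Muc4 and Tff3, where this held for 26.0% of all promoters, and 38.5% of those with a mean signal of at least 2. With Apc Min/+ lower, they did not overlap at 1 of 9, Zg16, where this held for 7.17% of all promoters and 0.161% of those with a mean signal of at least 2. At the start of Zg16 that lies 34653 bp downstream the groups overlapped, with 1.07 and 0.940 in wild type and 1.27 and 0.950 in Apc Min/+. The share of the 9 genes was near that of all promoters in both directions. The log2 difference was 0.65 ± 0.43 (SE) at Tff3 and 0.47 ± 0.41 at Muc4. On the centred scale these became -0.21 and -0.38, and the groups then stood apart with Apc Min/+ lower at 5 of 9 genes, beside 21.1% of all promoters. The centred median, -0.39 for the 9 genes, was lower still for all promoters, at -0.50.

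Several of the 9 genes lie in clusters with close relatives, which gives a local standard. Muc2 was higher than Muc6 (0.506 to 1.87) and than Muc5ac (0.135 to 0.913), gel-forming mucins of the stomach, in 4 of 4 libraries each, and higher than Muc5b in 3 of 4. In wild type this rests on few fragments, 6 and 6 at Muc2 against 5 and 5 at Muc6 and 2 and 5 at Muc5ac. Tff3 was higher than Tff1 and than Tff2, the trefoil peptides of the stomach, in 3 of 4 libraries each. Agr2 was higher than Agr3 (0 to 0.536) in 4 of 4. Muc4 was higher than Muc20 in 3 of 4. Muc2 exceeded Muc6, Muc5ac and Muc5b by 0.60, 0.83 and 0.79 on the log2(signal + 1) scale, and by 0.42, 0.57 and 0.72 without Apc Min/+ replicate 1. Tff3 exceeded Tff1 and Tff2 by 0.50 and 0.54, and by 0.20 and 0.22 without that library. For Agr2 over Agr3 the values were 0.79 and 0.60, and for Muc4 over Muc20 they were 0.42 and 0.17. The exact sign-flip permutation p was 0.125 or 0.25 for each of these 7 pairs, of 13 compared, where 0.125 is the smallest possible, and none can pass 0.05 with or without adjustment.

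The Clca cluster on chromosome 3 ran the other way. Clca4b, 100247 bp from Clca1, had 4.49 and 4.17 in wild type and 21.1 and 3.02 in Apc Min/+, with a mean of 8.19 against 0.799 at Clca1. It was higher than Clca1 in 4 of 4 libraries, by 2.02 on the log2(signal + 1) scale (exact sign-flip permutation p = 0.125). Without Apc Min/+ replicate 1, the log2 value of Clca1 minus that of Clca4b was -1.63. The other 5 relatives, Clca2, Clca3a1, Clca3a2, Clca3b and Clca4a, had means from 0.673 to 1.19 and were not set apart from Clca1, with exact permutation p from 0.5 to 1. Genes of this cluster are similar in sequence, and the methods state that reads with a low mapping quality were removed, so reads shared by near-identical copies may be missing from each.

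**Figure D4:**
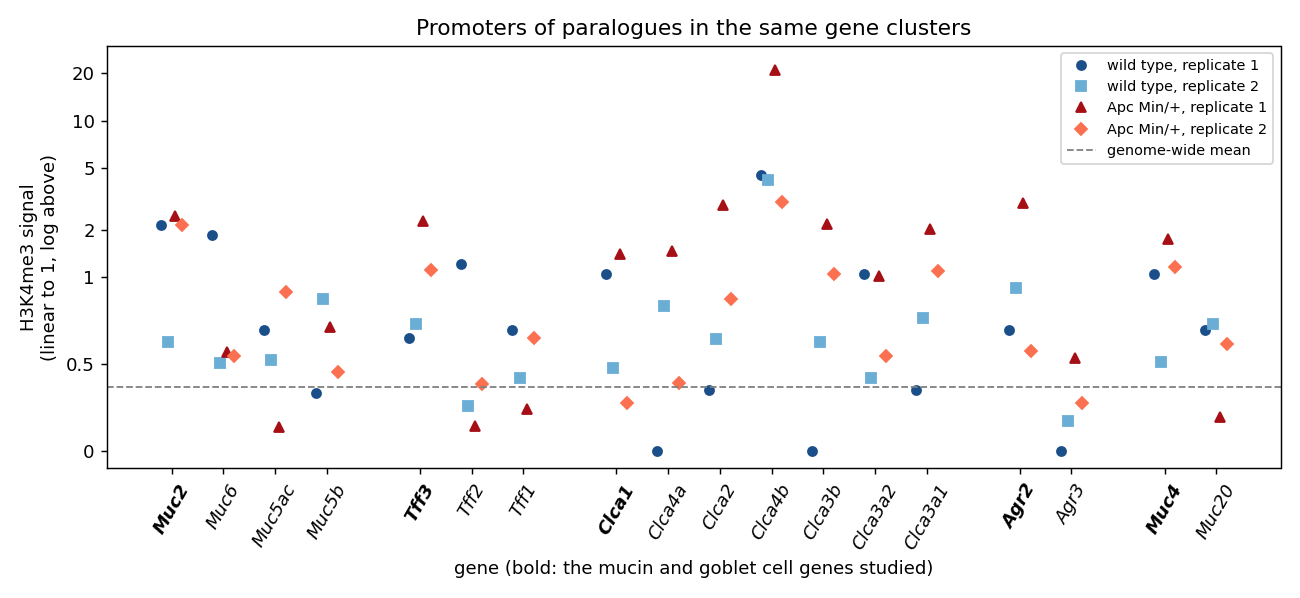
H3K4me3 signal (linear up to 1 and logarithmic above) at the promoters of Muc2, Tff3, Clca1, Agr2 and Muc4 (bold) and of relatives in the same cluster, 1 point per library, with the genome-wide mean dashed. Clca4b lies at 3.02 or above in every library, whereas Clca1 and the relatives of Muc2, Tff3, Agr2 and Muc4 lie below 2.

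Other genes of the mucus pathway were read from lists, where 9930 of all 21938 promoters had a mean signal of at least 2. In none of these lists did a promoter pass the test, with or without centring. Of 8 further mucins, 0 had a mean signal of at least 2, and the highest was Muc3a with 1.34. Of 12 other goblet cell products, 2 did, namely Nlrp6, an inflammasome sensor that acts in mucus secretion, with a mean of 11.3, and Atp2c2, a Golgi calcium pump, with 3.61. Reg4 (0.367) and Retnlb (0.376) were the lowest. Of the 12 products, 11 were higher in Apc Min/+ before centring, beside 70.6% of all promoters, with a median difference of 0.40 beside 0.35. Without Apc Min/+ replicate 1, 7 of 12 were higher, beside 60.3% of all promoters, with a median of 0.13 beside 0.08.

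Transcription factors of the goblet cell lineage had more of the mark than most of its products, with 4 of 7 at a mean of at least 2. These were Klf4 (7.70), Foxa3 (4.92), Foxa1 (3.91) and Atoh1 (2.21), the factor that sets the secretory fate, whereas Spdef, which drives goblet cell maturation, had 1.97. Spdef had 3.14 and 0.626 in wild type and 3.08 and 1.04 in Apc Min/+. Several of these factors also act in other cells, Klf4 in enterocytes among them. All 7 were higher in Apc Min/+ before centring, beside 70.6% of all promoters and 99.2% of those with a mean signal of at least 2. Their median was 0.93, beside 0.35 and 0.85 for these 2 sets. Without Apc Min/+ replicate 1, 6 of 7 were higher, beside 60.3% of all promoters, with a median of 0.30 beside 0.08. Centred, the 4 that could be tested differed by a median of 0.18.

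The enzymes that fold and sugar-coat mucins were mostly marked. Of 16 genes of folding and secretion, 13 had a mean of at least 2, led by the chaperones Hsp90b1 (14.9) and Hspa5 (14.1), which every secretory cell uses. The lowest of the list was Ern2, a stress sensor of mucus cells, at 0.899. Of 21 genes of mucin glycosylation, 14 had a mean of at least 2, led by B4galnt2 (12.4) and B3gnt3 (11.8). The lowest was Gcnt3 (0.321), which branches the mucin core, while its relative Gcnt4 had 6.71. St3gal4, a sialyltransferase, had the largest difference of the list relative to the median promoter, 1.26, with 1.39 and 0.772 in wild type and 22.5 and 2.38 in Apc Min/+. Its groups did not overlap, and without Apc Min/+ replicate 1 the centred difference was 0.59. Fut2, which adds the terminal fucose of gut mucins, had 10.3 in Apc Min/+ replicate 1 and 0.793 to 0.865 in the other libraries. The centred median was 0.01 for the 14 glycosylation genes and -0.01 for the 13 folding genes, and -0.03 and 0.01 without Apc Min/+ replicate 1.

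**Figure D5:**
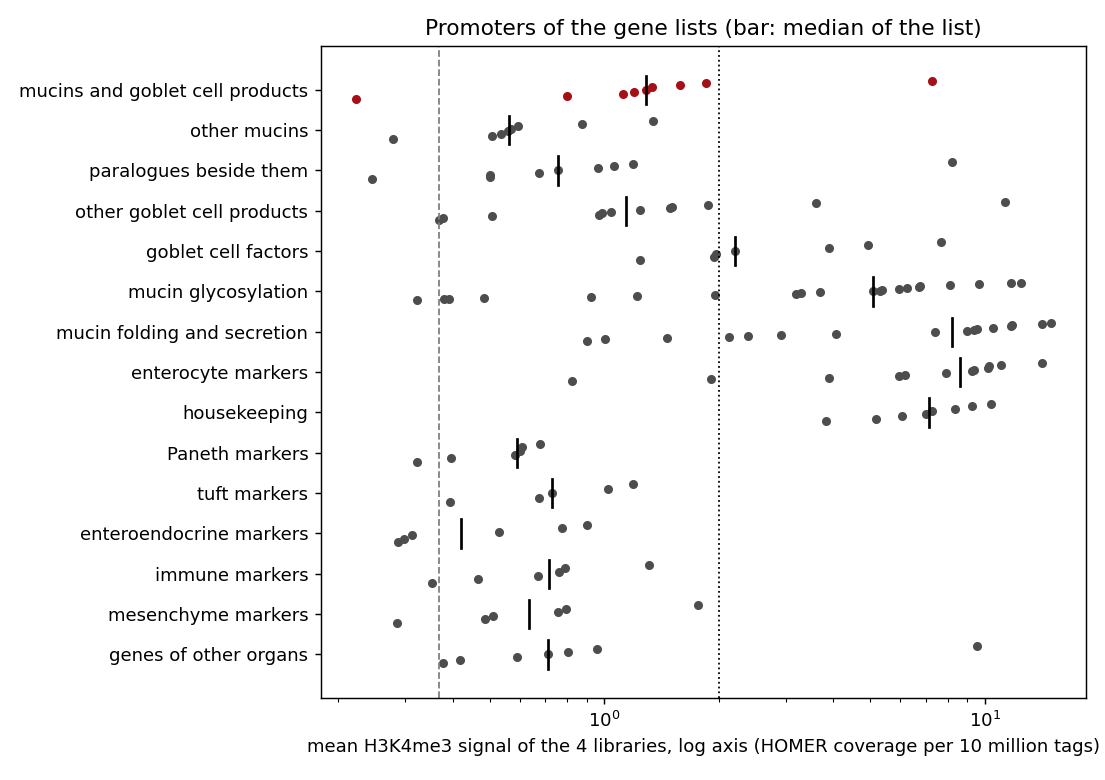
Mean H3K4me3 signal of the 4 libraries (log axis, HOMER coverage per 10000000 tags) of each promoter in 15 gene lists, 1 point per gene, with the median of the list as a bar, the genome-wide mean dashed and the mean needed for the test dotted. The mucins and goblet cell products (red) have a median of 1.29, between the enterocyte markers at 8.59 and the genes of other organs at 0.711, and Muc13 is the only red point to the right of the dotted line.

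Beside these lists, the 9 mucin and goblet cell promoters had a median mean signal of 1.29. The enterocyte markers had 8.59 and the housekeeping genes 7.14, and 7 genes chosen as silent in the gut had 0.711, although 1 of these, Mbp, had 9.52. The 8 genes other than Muc13 all lay below the lowest housekeeping promoter, Ppia, with a mean of 3.83.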

How the data were processed

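H3K4me3 CUT&RUN tracks of 4 libraries were used, grouped by the labels. Per the methods, the authors mapped the reads to mm10 with Bowtie2 after trimming, dropped duplicates (Picard) and MAPQ below 10, and retained fragments of 150 to 500 bp. The deposited values are signal, the coverage per base written by HOMER and scaled by the authors to 10000000 tags, not counts and without subtraction of a control. Fragments were the summed signal divided by the track sum per tag. Promoters were tested with limma 3.58.1 (R 4.3.3, trend) on log2(signal + 1), with Benjamini-Hochberg adjustment over all promoters tested, a filter at a mean signal of 2 and a threshold of 0.05. The test was checked on simulated data, where it recovered most changed promoters with the filter and none of them without it. The simulation gave all libraries the same overall promoter level, without a shift like that of Apc Min/+ replicate 1. The recovery with the filter therefore cannot be carried over to these libraries. Single values used exact permutation tests, two-sided. Regions were called at 5 times the genome-wide mean in bins of 100 bp, bridging gaps up to 500 bp and dropping those shorter than 300 bp. The remaining work was done in Python 3.11.15 with scipy 1.17.1, numpy 2.4.6, pandas 2.3.3 and matplotlib 3.10.9. All 9 genes were named, and in other lists those with the highest or lowest mean or the largest difference. Genes named beyond that rule (Spdef, Fut2, Gcnt4, Retnlb and further examples) were chosen after their values were seen. The 9 genes and the lists were chosen with earlier results of these data known. The 6 older libraries whose title and genotype label disagree were not used.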

Additional observations from a re-analysis of the deposited data

How the results depend on the processing

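Over 18 alternatives, Muc13 kept its direction and stayed below the threshold in 16. Its log2 difference ranged from 0.13 to 1.15 with all 4 libraries and from 0.23 to 1.74 when each library was left out in turn. With centring as well, this range was -0.24, without wild-type replicate 2, to 0.50, and 0 of the genes tested was then higher without wild-type replicate 2. Muc13 passed the threshold, as 1 of 1 gene tested, only without Apc Min/+ replicate 2, in a fit that takes the lone Apc Min/+ library to vary like the others. The number of promoters past the threshold, 0, became 12 with centring and 2 with quantile normalization. It ranged from 0 to 6479 when each library was left out, and with centring it was 2 and 18 without wild-type replicates 1 and 2, and 0 and 30 without those of Apc Min/+. With a window of 500 bp 3 of the 9 genes were above the filter and higher, and without a filter 7 were higher. Joining gaps of 1000 bp lengthened the Muc13 region from 5000 to 9200 bp, leaving out a library gave 4900 to 5300 bp, and Apc Min/+ replicate 1 alone gave 10400 bp.

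The alternatives for the 8 low genes and for all 9 together, fitted without a filter, were chosen after seeing the data. Centring left 1 of 9 genes higher, with a median of -0.39 beside -0.50 for all promoters. The values of Muc2, Muc4, Tff3, Fcgbp, Clca1 and Agr2 were then -0.31, -0.38, -0.21, -0.59, -0.85 and -0.39. Since centring lowers each difference by the shift of the median promoter, these signs follow from its construction. Clca1 was -0.058 with quantile normalization, -0.10 with the window of 500 bp and -0.12 with a pseudocount of 0.1. Muc4 was -0.048 with the window of 500 bp. With the window of 2000 bp Muc1 was 0.10 and Fcgbp -0.11, and at the start with the highest signal Fcgbp was -0.083 and Zg16 0.068. For these reversals the cause was not tested.

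When each library was left out in turn, the number of the 9 genes higher ranged from 4 to 8 and their median from -0.072 to 0.62. With centring as well, the number was 4 without Apc Min/+ replicate 1 and 1 without any other library. The medians were then -0.61 and -0.56 without wild-type replicates 1 and 2, and -0.20 and -0.96 without Apc Min/+ replicates 1 and 2. Without centring, the differences ranged from -0.64 to 0.47 at Muc1, -0.072 to 0.61 at Fcgbp, -0.45 to 0.47 at Clca1 and -0.20 to 1.12 at Agr2, and those of Muc2, Muc4, Tff3 and Zg16 kept their sign.

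The labels number the replicates 1 and 2 in both groups. With the replicate block, Muc13 kept a difference of 0.98 (limma adjusted p = 0.533) and 1 of 9930 promoters passed. The deviations of same-numbered libraries correlated at 0.196 over promoters, and 2 pairs do not show that the numbers pair the libraries. Counting error limits the 8 low genes, which rest on 1 to 23 fragments a library.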
